A study of Mus musculus with 21 samples.

Results

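The H3K4me2 experiment compared the histone mark H3K4me2 in hepatocytes with and without a functional Arid1a gene, using 3 libraries labelled H3K4me2-WT and 3 labelled H3K4me2-KO. These 6 samples are all the H3K4me2 ChIP samples among the 21 samples of the series. They were chosen by the antibody and genotype in the labels, and each has 1 list of broad peaks. Hepatocytes were isolated by perfusing the livers of 90-day-old mice on a mixed C57/B6 and 129 background. WT mice carried Arid1a Fl/Fl, and KO mice carried Arid1a Fl/Fl; Alb-cre, so both groups have floxed alleles and differ in the Cre. The albumin promoter drives this Cre, so removal is limited to cells that use that promoter, and Arid1a in other liver cells is not targeted. The labels do not say whether replicates were separate mice, so p-values measure the spread between these libraries, which may be technical. A peak list cannot show whether Arid1a was removed, so the genotypes are as labelled.

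H3K4me2 is dimethylated lysine on the tail of histone H3. It marks promoters and enhancers that are active or ready for use, and at active genes it flanks the start. ARID1A is the largest subunit of the canonical BAF form of the SWI/SNF complex, an ATP-driven remodeller that moves nucleosomes and opens enhancers. In liver the complex works together with hepatocyte transcription factors such as C/EBPα.

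The lists differed in length and make-up. The WT lists held 34849, 61246 and 49802 peaks and the KO lists 24908, 54544 and 175797, in replicate order. Sequencing depth is unknown, and the length of a list is no measure of it. KO replicate 3 stood apart: 75.3% of its peaks overlapped no peak of the other 5 lists, against 2.16% to 22.1% in those 5. Its median −log10 q, as deposited, was 1.14, against 2.42 to 4.75 in the others. In that list the rank of fold did not go with the rank of width (Spearman correlation across peaks −0.0939), whereas in the other 5 it ran from 0.448 to 0.644. Peaks of 1 list are not independent replicates, so these correlations describe the lists only. WT replicate 2 and KO replicate 2 also resembled each other. They alone shared 15590 of the 1-kb bins of the genome, where each other pair of libraries alone shared 17 to 1628, while 17521 bins were marked in all 6 libraries. A bin counts as marked when peaks cover 500 bp or more.

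Promoters of 6 genes show what kinds of gene starts carried the mark. Each sequence is the 250 bases before the annotated start, from RefSeq on GRCm38.p6, the assembly that mm10 names, written 5′ to 3′ along the gene, with each CG dinucleotide in capitals. They stand for a cell-cycle gene with a short mark, a hepatocyte gene with a long mark, the genes with the smallest p for a higher and for a lower width rank in KO, a gene marked in WT only, and a gene of another liver cell type with no mark.
Mcm5: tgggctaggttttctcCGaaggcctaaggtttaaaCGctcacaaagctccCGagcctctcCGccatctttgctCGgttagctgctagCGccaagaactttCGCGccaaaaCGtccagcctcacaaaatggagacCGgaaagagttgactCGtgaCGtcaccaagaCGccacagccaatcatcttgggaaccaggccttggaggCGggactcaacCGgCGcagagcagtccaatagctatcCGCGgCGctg
Alb: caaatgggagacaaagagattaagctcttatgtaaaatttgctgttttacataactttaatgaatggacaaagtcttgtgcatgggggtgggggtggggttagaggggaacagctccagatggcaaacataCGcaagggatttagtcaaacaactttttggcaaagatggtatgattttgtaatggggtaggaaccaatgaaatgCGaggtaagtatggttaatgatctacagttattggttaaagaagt
Gstm3: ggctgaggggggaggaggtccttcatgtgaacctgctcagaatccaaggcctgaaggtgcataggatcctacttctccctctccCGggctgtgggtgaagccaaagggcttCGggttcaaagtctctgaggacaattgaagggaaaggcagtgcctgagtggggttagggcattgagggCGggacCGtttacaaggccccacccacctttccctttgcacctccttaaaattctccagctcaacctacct
Slc3a1: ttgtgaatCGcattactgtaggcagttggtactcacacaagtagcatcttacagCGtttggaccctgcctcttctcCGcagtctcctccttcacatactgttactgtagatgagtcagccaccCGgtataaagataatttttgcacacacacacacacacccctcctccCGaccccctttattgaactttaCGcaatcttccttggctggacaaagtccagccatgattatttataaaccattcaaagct
Lcn2: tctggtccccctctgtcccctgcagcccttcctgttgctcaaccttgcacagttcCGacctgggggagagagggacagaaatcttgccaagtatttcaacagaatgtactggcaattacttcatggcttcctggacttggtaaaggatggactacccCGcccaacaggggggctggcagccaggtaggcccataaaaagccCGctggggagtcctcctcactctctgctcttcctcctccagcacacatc
Marco: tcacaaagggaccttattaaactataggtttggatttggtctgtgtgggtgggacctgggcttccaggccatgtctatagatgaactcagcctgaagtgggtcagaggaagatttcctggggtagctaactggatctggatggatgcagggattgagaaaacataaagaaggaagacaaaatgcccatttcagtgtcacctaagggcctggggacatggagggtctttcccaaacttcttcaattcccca

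Mcm5, part of the replicative helicase, has 19 CG in this stretch (chr8:75109259-75109508, plus strand), and the whole stretch lay in peaks in all 6 libraries. Alb, which encodes serum albumin, has 2 CG (chr5:90460620-90460869, plus strand). All 250 bases of the Alb stretch lay in peaks in WT replicates 1 and 2 and KO replicates 2 and 3, and none in WT replicate 3 or KO replicate 1, although the gene end was marked in all 6. The stretch of Gstm3, a glutathione S-transferase, has 4 CG (chr3:107969175-107969424, minus strand). Peaks covered 44, 250 and 0 of its bases in WT and all 250 in each KO library. Slc3a1 encodes a subunit of the cystine transporter, and its stretch has 6 CG (chr17:85028097-85028346, plus strand). There the order was the other way round, with 250, 250 and 65 bases covered in WT and 0, 66 and 0 in KO. Lcn2, the acute-phase protein lipocalin 2, has 3 CG (chr2:32387740-32387989, minus strand), with 250, 250 and 0 bases covered in WT and 0 in each KO library. Marco, a macrophage scavenger receptor, has 0 CG (chr1:120505025-120505274, minus strand), and no base was covered in any of the 6 libraries.

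Gene starts were marked more often than 3′ ends, and marked genes had more CG before the start than unmarked ones. A promoter sequence was matched for 17492 of 21887 protein-coding genes. Of these, 55.7%, 62.8% and 55.4% had a peak within 1 kb of the start in WT, and 51.8%, 62.8% and 60.8% in KO. The 3′ ends were marked at 9.58%, 15.1% and 10.6% of genes in WT and 6.67%, 13.9% and 21.6% in KO. Coverage was highest 250 to 500 bp downstream of the start, at 50.2%, 57.4% and 46.2% of starts in WT and 40.2%, 57.6% and 43.4% in KO, and it was higher 1 kb downstream than 1 kb upstream in each library. The 11169 genes marked at an end in all 6 libraries had a median of 16 CG in the 250 bases before the start and 60% G and C, with a promoter matched for 80.8%. The 5702 genes with no peak at either end in any library had a median of 2 CG and 45.6% G and C, with 80.8% matched. At least 1 CG was found in 91.7% of the 27025 promoters of the table, which include genes that do not code for protein. CG reads the same on both strands.

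Peaks were then sorted into 3 classes. A peak was at a gene end if it shared a base with the 1 kb on each side of either annotated end of a protein-coding gene, in a gene body if it otherwise shared a base with such a gene, and outside genes if neither. Gene ends held 33.9%, 23.0% and 25.3% of the WT peaks and 47.5%, 25.2% and 9.73% of the KO peaks. The highest and the lowest share were both in KO, and the means did not differ beyond the spread (27.4 ± 5.73% in WT and 27.5 ± 19.01% in KO, SD, n = 3, exact two-sided permutation p = 1). Peaks outside genes made up 27.6%, 30.5% and 29.1% in WT and 20.6%, 29.6% and 47.5% in KO (exact permutation p = 0.8). Of the peaks of KO replicate 3 outside genes, 88.0% were in no other list, against 22.1% of its peaks at gene ends. With 3 libraries against 3, no comparison of 1 value per library can give a p under 0.1.

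**Figure D1:**
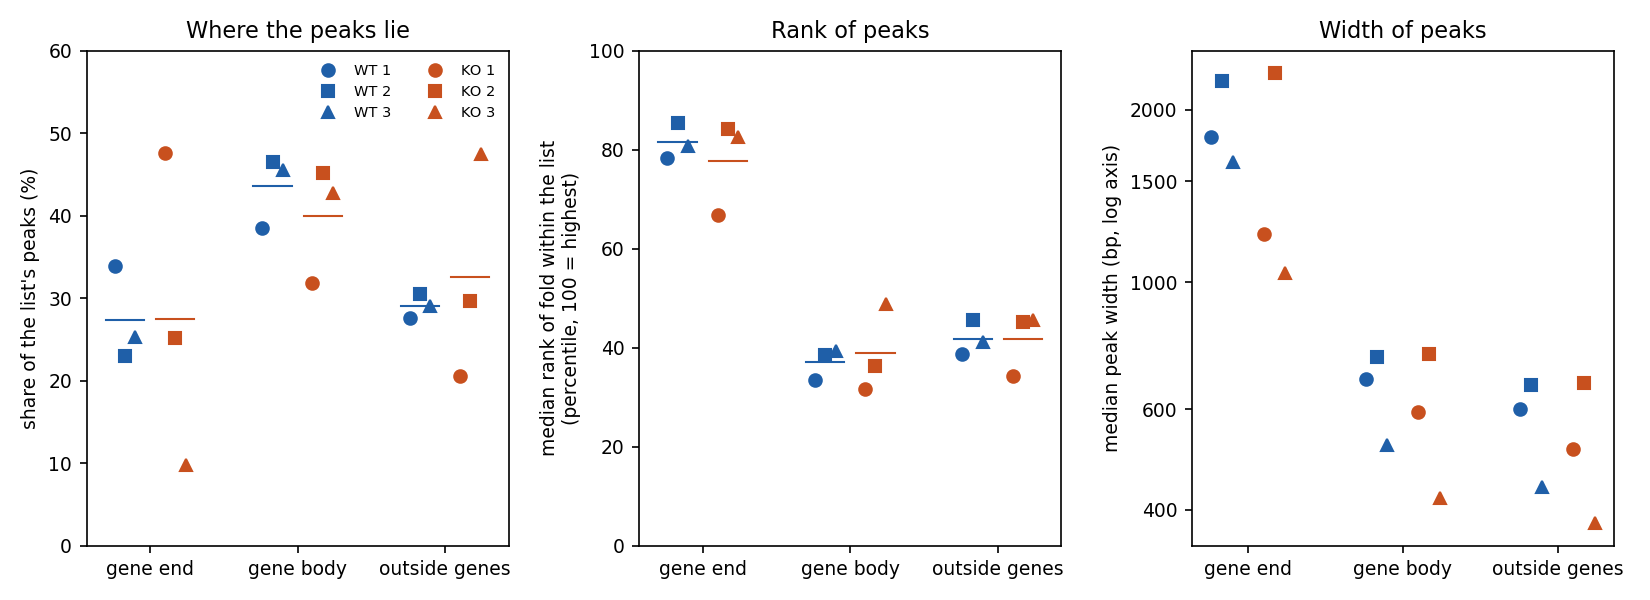
Share of peaks (left, %), median rank of fold within the list (middle, percentile) and median width (right, bp, log axis) at gene ends, in gene bodies and outside genes. Each point is 1 library, horizontal lines are group means in the left and middle plots, and gene-end peaks are the highest in rank and width in every library.

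Gene-end peaks ranked highest by fold over local background in every library, and the distance to peaks outside genes was smaller in the 3 KO libraries. The median gene-end peak stood at percentile 78.3, 85.4 and 80.8 of its own list in WT and 66.7, 84.1 and 82.6 in KO, where 100 is the strongest peak. Peaks in gene bodies had medians of 33.6, 38.6 and 39.3 in WT and 31.7, 36.3 and 48.9 in KO. Peaks outside genes had medians of 38.7, 45.6 and 41.2 in WT and 34.4, 45.1 and 45.5 in KO. The gene-end median minus the outside median was 39.6, 39.7 and 39.6 percentile points in WT and 32.4, 39.0 and 37.1 in KO. The groups do not overlap, the WT libraries lie close together, and the mean difference was −3.49 points (39.6 ± 0.0865 and 36.2 ± 3.43, SD, n = 3; exact permutation p = 0.1, the smallest possible). KO replicate 1, the shortest list, lies lowest, and without it the difference was −1.59 points. The groups overlapped with a window of 5 kb (difference −4.64, exact permutation p = 0.3) and with peaks classed by midpoint (−3.53, exact permutation p = 0.3). They also overlapped when each list was cut to its 24908 strongest peaks (−9.55, exact permutation p = 0.2) or to its upper 50% (−9.48, exact permutation p = 0.4). The gene-body median minus the outside median was −5.10, −6.98 and −1.86 points in WT. In KO it was −2.69, −8.77 and 3.37 points, above 0 in replicate 3 alone, and the groups overlap (exact permutation p = 0.7).

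Gene-end peaks were also the widest in every library. Their median width was 1795, 2243 and 1622 bp in WT and 1215, 2317 and 1037 bp in KO. KO replicates 1 and 3 lay below the WT libraries and KO replicate 2 above them, so the groups overlap (1887 ± 320 bp in WT and 1523 ± 693 bp in KO, SD, n = 3, exact permutation p = 0.5). Gene-body peaks had medians of 677, 741 and 520 bp in WT and 592, 748 and 419 bp in KO, and peaks outside genes 600, 661 and 439 bp in WT and 511, 666 and 379 bp in KO. Within a library, the log2 ratio of gene-end to outside width was 1.58, 1.76 and 1.89 in WT and 1.25, 1.80 and 1.45 in KO (exact permutation p = 0.3). This difference changed sign, from −0.24 to 0.51, when each list was cut to its 24908 strongest peaks. In that cut KO replicate 3 kept peaks outside genes with a median of 164 bp beside gene-end peaks of 1591 bp, while the other 5 libraries kept outside peaks of 511 to 1060 bp. Very wide peaks were mostly at gene ends. Of peaks of at least 5 kb, 76.6%, 70.6% and 75.6% were at gene ends in WT and 75.3%, 73.0% and 75.9% in KO. These wide peaks numbered 1112, 2861 and 816 in WT and 287, 2795 and 419 in KO.

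**Figure D2:**
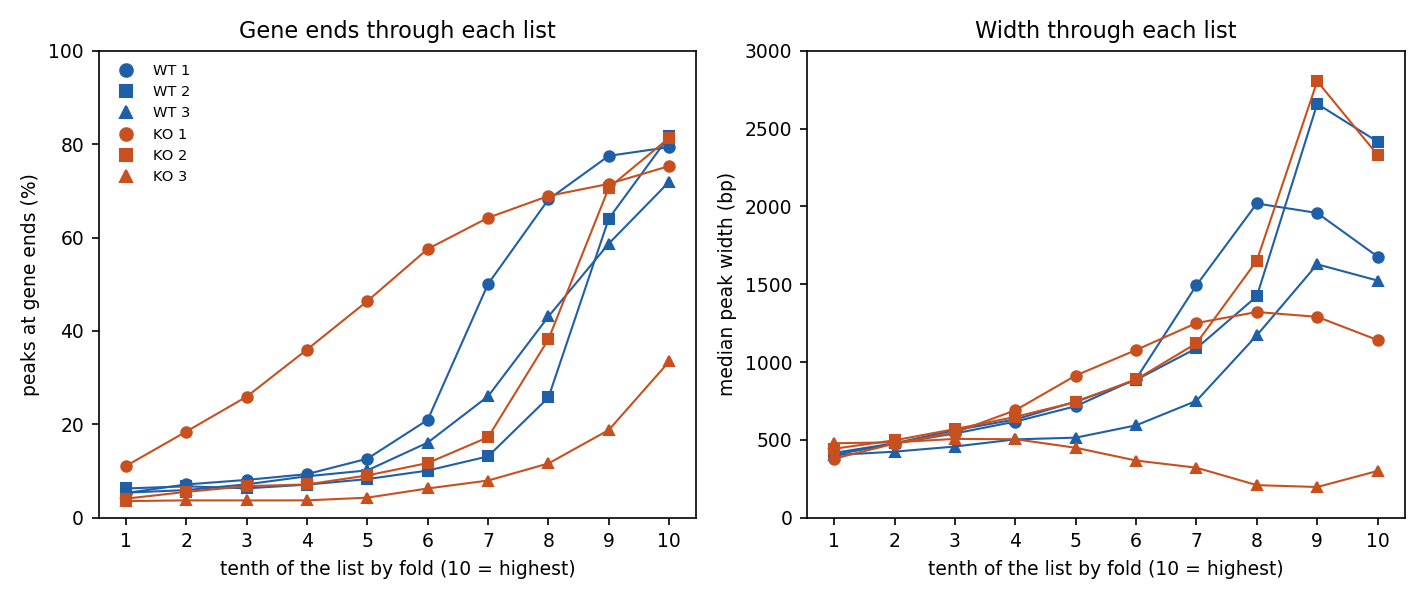
Share of peaks at gene ends (left, %) and median width (right, bp) in each decile of a list ordered by fold, from the weakest (1) to the strongest (10). Each line is 1 library; in KO replicate 3 the share at gene ends reaches 33.5% in the strongest decile, where the other 5 reach 72.0% to 81.7%, and the width does not increase.

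The gene-end share climbed through each list from weak to strong peaks. In the strongest decile it was 79.4%, 81.7% and 72.0% in WT and 75.3%, 81.4% and 33.5% in KO. In the weakest decile it was 5.31%, 6.29% and 5.38% in WT and 11.1%, 4.11% and 3.58% in KO. The strongest decile of KO replicate 3 had a median width of 301 bp, against 1142 to 2416 bp in the other 5 libraries.

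With all 6 libraries, more bins were marked in all WT libraries and no KO library than the reverse, and this direction turned when KO replicate 1 was left out. At gene ends 75 of 16211 bins marked in all WT libraries were marked in no KO library (0.463%). In gene bodies this held for 362 of 12610 (2.87%), and outside genes for 226 of 4182 (5.40%). In the reverse direction the counts were 10 of 11362 (0.0880%), 12 of 6306 (0.190%) and 12 of 1802 (0.666%). With all 6 libraries the share was lowest at gene ends and highest outside genes in both directions. When peaks had to cover the whole bin, the KO-only shares ran the other way, at 0.352% at gene ends, 0.206% in gene bodies and 0% outside genes. Over all classes 663 bins were marked in WT only and 34 in KO only. Leaving out a library removes a condition from both counts, so neither can fall, and the size of the rise differed by library. Without KO replicate 2 the WT-only count was 5718, without WT replicate 1 it was 2208, and without WT replicate 3 it was 1737. Without KO replicate 1 the direction turned, with 727 bins in WT only (2.203%) and 1373 in KO only (4.03%), and the KO-only share was the higher in all 3 classes. There a KO-only bin needed a mark in 2 KO libraries and a WT-only bin in 3 WT libraries, so these counts are under unlike conditions. The KO-only count was 279 without WT replicate 2, 91 without KO replicate 3 and 56 without KO replicate 2. These counts have no test, and the WT and KO libraries also differ in list length.

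**Figure D3:**
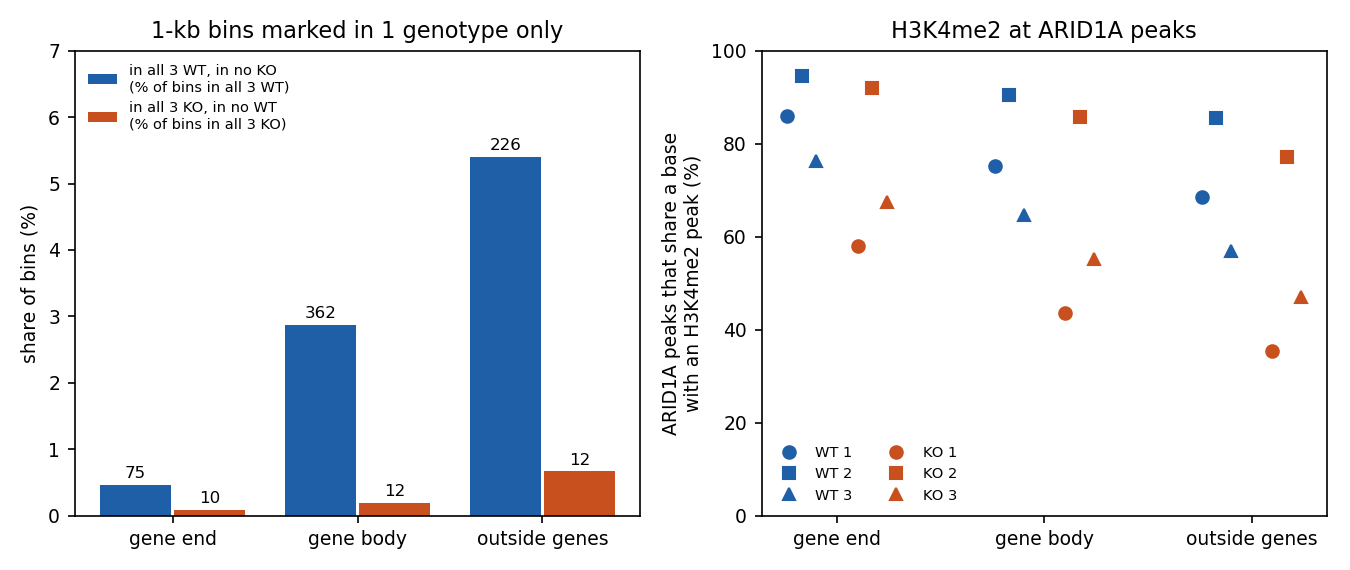
Left, 1-kb bins marked in all 3 libraries of 1 genotype and in none of the other, as a share (%) of the bins marked in all 3, with the number of bins above each bar. Right, share (%) of ARID1A peaks that share a base with an H3K4me2 peak, 1 point per library; KO values lie below the WT value of the same number in every class, and the groups overlap.

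ARID1A peaks, mapped with a V5 antibody in the 1 library of genotype V5-Arid1a, were covered by H3K4me2 to different degrees in the 6 libraries. The list of 5726 ARID1A peaks is a part of a longer numbered list (40.0% of the highest number), and no source used here says how they were picked. Of 475 ARID1A peaks at gene ends, 85.9%, 94.5% and 76.2% shared a base with an H3K4me2 peak in WT and 58.1%, 92.0% and 67.4% in KO. Of 3036 in gene bodies the shares were 75.2%, 90.4% and 64.6% in WT and 43.7%, 85.7% and 55.1% in KO. Of 2215 outside genes they were 68.5%, 85.5% and 56.9% in WT and 35.4%, 77.1% and 47.1% in KO. The value of each KO library was below that of the WT library with the same number in all 3 classes, but KO replicate 2 was above WT replicates 1 and 3, so the groups overlap. KO replicate 3, whose peaks covered 102 Mb, the most of the 6, marked fewer of these sites than each WT library. Of its peaks, 75.3% were in no other list, and the part of list make-up in these shares was not tested. Gene-end peaks that touched an ARID1A peak were wider than the rest in each library, with medians of 4359, 6251.5 and 3607 bp in WT and 3057, 6330 and 2910.5 bp in KO, against 1730, 2156 and 1576 bp and 1186, 2222.5 and 1004 bp for the rest. The same held for gene-end peaks that touched a C/EBPα peak found in both WT lists, with medians of 3025, 4146.5 and 2635 bp in WT and 1915, 4262 and 2245 bp in KO, against 1623, 1995 and 1468 bp and 1116, 2069 and 915 bp. C/EBPα peaks also had a lower marked share in each KO library than in the WT library of that number. For those outside genes in C/EBPα WT replicate 1 it was 53.0%, 70.01% and 48.1% in WT and 26.2%, 58.3% and 39.3% in KO. For those at gene ends in C/EBPα KO replicate 1 it was 91.4%, 95.6% and 85.9% in WT and 79.4%, 94.6% and 80.6% in KO. In both, KO replicate 2 was above WT replicates 1 and 3, so the groups overlap, and the numbers are not shown to pair the libraries. The C/EBPα lists are parts of longer numbered lists too, with 40.0% to 40.1% of the highest number. A longer peak has more bases to touch, and its part in these differences was not tested.

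Single gene ends were compared by rank. Of 21887 protein-coding genes, 11169 had a peak at an end in all 6 libraries; genes that lacked one in any library are not among them. In each library these gene ends were ranked against each other by the highest fold and by the summed width of their peaks. Ranks were turned into normal scores and fitted with limma. At a Benjamini-Hochberg adjusted p under 0.05, 0 of 11169 gene ends were called by fold (0%) and 0 by width (0%). At an unadjusted p under 0.05 there were 472 by fold (212 with KO higher and 260 lower) and 451 by width (168 higher and 283 lower). With the replicate number as a block there were 686 by width (283 higher and 403 lower) and again 0 called. The groups did not overlap by fold at 487 gene ends with KO above (4.36%) and 515 with KO below (4.61%). By width this held at 525 with KO above (4.7%) and 483 with KO below (4.32%), a balance opposite to that at an unadjusted p under 0.05. In simulated data of the fold comparison the same fit recovered 13 of 100 shifts of 2 SD and 94 of 100 shifts of 4 SD, with 3 false calls. The simulated noise was independent and equal in all 6 libraries. In the real fold scores, deviations from the group mean had correlations of −0.15 to 0.20 between WT and KO libraries. These shares therefore do not say how many real shifts the comparison would find. The genes described next were chosen by smallest p and are given as not past the threshold.

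Gstm3 had the smallest adjusted p for width. Its gene end (gene at chr3:107963696-107969174) had 291, 1307 and 241 bp in peaks in WT and 2571, 5000 and 3553 bp in KO. Every KO library lies above every WT library, and the width percentile was 1.92 ± 2.69 in WT and 79.6 ± 3.73 in KO (SD, n = 3), while its fold rank overlapped between groups. The difference was 3.17 ± 0.35 in normal score (SE), with a limma adjusted p of 0.0628. It passed the threshold in 3 of the other fits, with array weights (0.0382), with percentile ranks (0.0426) and without WT replicate 2 (0.0260). Over the 13 settings in which it was among the gene ends of smallest p, its adjusted p ranged from 0.0260 to 0.386. With the replicate block it was 0.288, and the fit with equal list lengths is not in this range. Gstm3 lies in a family of similar genes, and reads that match several copies could have been counted for either. Slc3a1 (chr17:85028347-85064241) had the smallest p in the other direction, with 2736, 3610 and 2299 bp in WT and 196, 919 and 572 bp in KO. Again the groups do not overlap, at percentile 59.3 ± 5.02 in WT and 2.28 ± 1.94 in KO (difference −2.32 ± 0.29, limma adjusted p = 0.0995, and 0.0382 with array weights). Over the 12 settings taken in the same way its adjusted p ranged from 0.0382 to 0.916. The fits with equal list lengths and with the 500 bp window are not in this range. Every other gene end had a limma adjusted p of 0.988 or more by width.

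**Figure D4:**
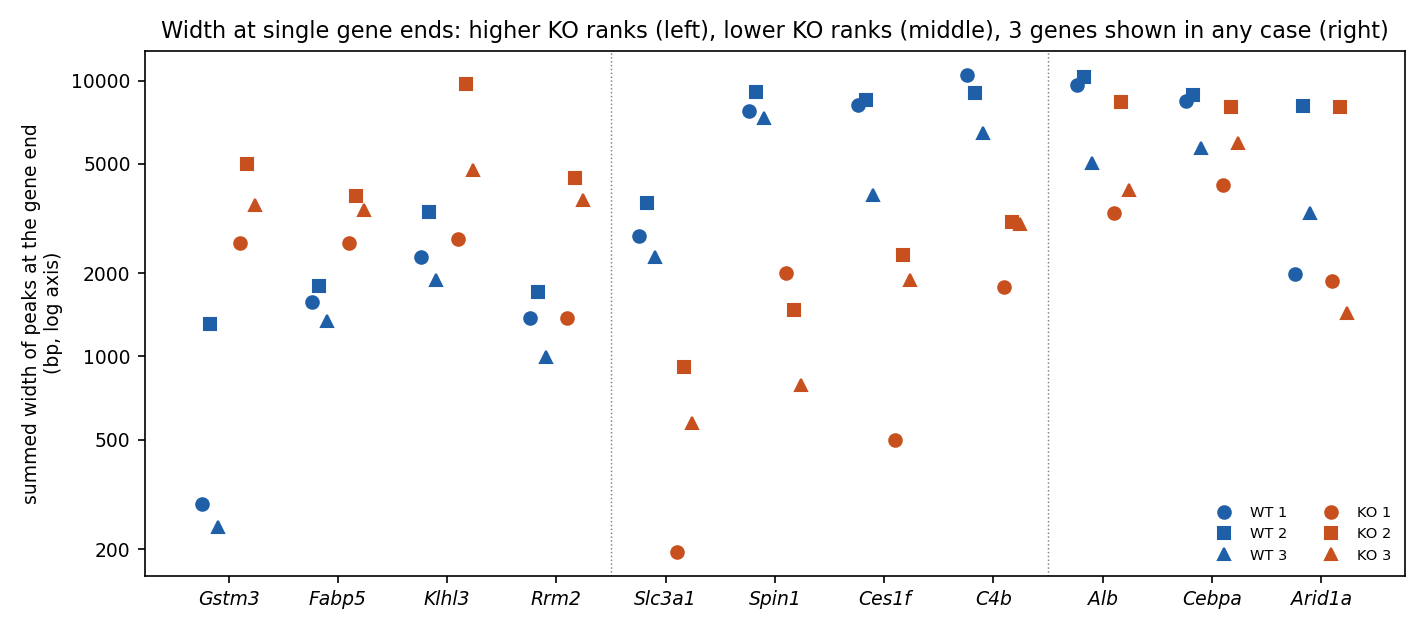
Summed width of the H3K4me2 peaks at single gene ends (bp, log axis), 1 point per library. Gstm3, Fabp5, Klhl3 and Rrm2 have higher width ranks in KO, Slc3a1, Spin1, Ces1f and C4b lower ones, and Alb, Cebpa and Arid1a are shown in any case; none passed the threshold of the test.

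The next gene ends by p in the width comparison differed in function, and none passed the threshold. C4b, complement component C4, had 10504, 9042 and 6442 bp in WT and 1792, 3075 and 3013 bp in KO, and has a close copy next to it in the genome. Ces1f, a carboxylesterase, had 8176, 8515 and 3863 bp in WT and 499, 2338 and 1889 bp in KO. At both genes the KO libraries lie below the WT libraries. Lrg1, a plasma glycoprotein of the acute phase, had 6156, 11602 and 7191 bp in WT and 2730, 3790 and 2608 bp in KO. Steap3, a ferrireductase of iron uptake, had 6769, 6618 and 1755 bp in WT and 712, 1527 and 674 bp in KO. The others with lower KO ranks were Spin1, Syde2, Perp, Slc35e3 and Fam110c. On the other side, Fabp5, a fatty acid binding protein, had 1572, 1802 and 1343 bp in WT and 2572, 3828 and 3398 bp in KO. Klhl3, an adaptor of a ubiquitin ligase, had 2295, 3346 and 1895 bp in WT and 2672, 9729 and 4752 bp in KO. Rrm2, the regulated subunit of ribonucleotide reductase, had 1379, 1717 and 994 bp in WT and 1382, 4436 and 3682 bp in KO, where KO replicate 1 is close to WT replicate 1 in bp but higher in rank (percentile 41.8 against 19.9). Rgs19, Cacfd1, Rnd2, Galr3 and Adamts13 were also on this side, and Cacfd1 and Adamts13 share peaks at neighbouring ends.

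By fold rank the smallest p belonged to gene ends that were lower in KO. Maml3, a coactivator of Notch signalling, stood at percentiles 98.5, 91.1 and 98.3 of the tested gene ends in WT and 2.67, 63.1 and 1.74 in KO (limma adjusted p = 0.532). Colca2 stood at 88.9, 93.2 and 89.6 in WT and 3.20, 34.0 and 0.949 in KO (limma adjusted p = 0.532). In both, KO replicate 2 lies nearest to the WT libraries, and Maml3 passed the threshold without it (limma adjusted p = 0.0495). Pparg, a nuclear receptor of lipid storage, stood at 33.8, 99.2 and 41.2 in WT and 0.125, 4.50 and 0.152 in KO (limma adjusted p = 0.532). Fam110c was the one gene named in both comparisons, with fold percentiles of 86.5, 85.9 and 66.3 in WT and 13.5, 8.36 and 11.95 in KO. Cby3, Ovca2, Grk3, Ccdc65, Plce1 and Dnajc28 were the others with lower KO ranks. Those with higher KO ranks included Slc6a21, Adi1, Mcc, Chrna4, Nup98 and Pgap2, which share 1 peak, and Samd12, Armc9 and Pomc. Slc6a21, for example, stood at 19.9, 8.48 and 2.88 in WT and 91.5, 84.4 and 77.6 in KO.

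Arid1a, Alb and Cebpa kept the mark in all 6 libraries. The Arid1a gene end had 1988, 8096 and 3297 bp in peaks in WT and 1883, 8016 and 1437 bp in KO, with no separation of the groups. Alb had 9627, 10332 and 5041 bp in WT and 3322, 8340 and 4026 bp in KO, so the groups overlap. Its width percentiles were 98.5, 95.4 and 91.4 in WT and 89.1, 92.1 and 87.7 in KO, which overlap too. Cebpa, which encodes C/EBPα, had 8422, 8855 and 5671 bp in WT and 4197, 8014 and 5960 bp in KO. Its fold rank was higher in KO without overlap, at percentiles 35.2, 37.0 and 38.0 in WT and 53.3, 45.3 and 56.6 in KO, with an unadjusted limma p of 0.506 (adjusted p = 0.999).

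Sites within genes and between them were compared on 17566 shared segments, stretches of at least 200 bp covered in all 6 libraries. The limma fit called 0 of them by fold (0%) and 0 by width (0%), with 737 at an unadjusted p under 0.05 by fold (331 with KO higher and 406 lower) and 714 by width (253 higher and 461 lower). The groups did not overlap by fold at 760 with KO above (4.33%) and 823 with KO below (4.69%), and by width at 925 with KO above (5.27%) and 684 with KO below (3.89%). By width these counts and those at an unadjusted p under 0.05 lean opposite ways. By width, at gene ends 602 segments had KO above and 376 below, outside genes 139 and 69, and in gene bodies 184 above and 239 below. The median difference in normal score of width was 0.10 at gene ends, −0.07 in gene bodies and 0.14 outside genes. These widths are those of the whole peak over the segment, so several segments can share a peak, and the difference between classes was not tested.

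Within gene bodies, 5 segments were named for lower width in KO, in Rab21, Ppara, Acsl1, Nek7 and Ces1f. A segment in Ppara, the receptor that drives fatty acid oxidation genes in liver (chr15:85776536-85777171), lay in peaks of 7601, 13012 and 7969 bp in WT and 1087, 5072 and 1925 bp in KO. A segment in Acsl1, which activates long-chain fatty acids (chr8:46484983-46485516), lay in peaks of 4647, 21874 and 3647 bp in WT and 895, 2639 and 631 bp in KO. In both the KO libraries lie below the WT libraries, with limma adjusted p = 0.928. Segments in Grb2, Nos1ap, Mcph1, Neu1 and Tns2 led the opposite direction. The Grb2 segment, in an adaptor gene of growth factor signalling (chr11:115699541-115699855), lay in peaks of 461, 1787 and 1176 bp in WT and 3291, 10208 and 5289 bp in KO (limma adjusted p = 0.827). By fold, the leading body segments were in Mxi1, Diaph1, Gorasp1 and Eif4g3 with KO above, and in Rab21, Smim3, Dync1i1, Ets1 and Dcun1d1 with KO below. The Rab21 segments named for width and for fold are different ones within the same WT peaks of 5073, 6861 and 3762 bp. Both stood at fold percentiles 55.9, 53.9 and 57.6 in WT. In KO the segment named for fold stood at 1.87, 3.39 and 5.17, and the one named for width at 77.0, 85.1 and 88.0, above WT.

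Outside genes, the segment with the smallest p for lower width lay 23636 bp from Bicc1 (chr10:71183326-71183629). Its peaks were 3761, 3616 and 2916 bp wide in WT and 306, 351 and 398 bp in KO, with no overlap (limma adjusted p = 0.827). A segment 56839 bp from Gclc, which makes the first step of glutathione synthesis (chr9:77851328-77851531), lay in peaks of 4711, 3865 and 3259 bp in WT and 653, 647 and 959 bp in KO. Segments near Fgd2, Rdh7 and Mdh1 followed. Those near Hhipl2, Ostc, Cldn3, Poc1b and Mindy4 had higher width ranks in KO. By fold, a segment 51090 bp from Foxo1, a transcription factor of fasting metabolism (chr3:52401199-52401571), stood at percentiles 58.3, 73.7 and 99.5 of segments in WT and 1.002, 20.03 and 8.49 in KO. A segment 3581 bp from Gc, the vitamin D binding protein of plasma (chr5:89461479-89461872), stood at 37.5, 65.0 and 57.1 in WT and 0.296, 42.7 and 0.102 in KO, where KO replicate 2 overlaps WT. Neither passed the threshold (limma adjusted p = 0.999). Segments near Gm40369, Gm6958 and Il20rb were also lower in KO, and those near Atxn7l1, Zfp217, Parp11, Zfp949 and Hsp90aa1 higher. The nearest gene is a name for the place, and a link to that gene was not tested.

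Several lists of genes of hepatocyte function carried wide marks in both genotypes, while their fold ranks varied between libraries. Not all did: hepatocyte markers had median width percentiles of 54.6 and 51.3 in KO replicates 1 and 3. Acute phase genes had 50.2 to 59.3 in KO, and both lists are described below. The lists of genes were drawn up with earlier results of these data known, so counts over a list describe it and are no independent support. Among 30 of 32 plasma protein, complement and coagulation genes marked in all 6 libraries, the median width percentile was 95.1, 94.4 and 96.0 in WT and 93.6, 95.0 and 91.5 in KO, where all tested gene ends have 50.0. The median fold percentile of the same genes was 26.7, 24.1 and 42.4 in WT and 38.6, 19.7 and 65.9 in KO. For urea cycle and amino acid breakdown, with 19 of 20 marked in all 6, the width medians were 97.7, 97.2 and 97.4 in WT and 96.0, 97.3 and 93.0 in KO. The fold medians were 20.002, 10.4 and 25.8 in WT and 49.2, 7.15 and 51.4 in KO. KO replicates 1 and 3 lie above WT and KO replicate 2 below it in fold, so the groups overlap. Lipid and lipoprotein genes, bile acid genes and hepatocyte transcription factors also had width medians over 88 in each library. No member of any list was called by limma.

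**Figure D5:**
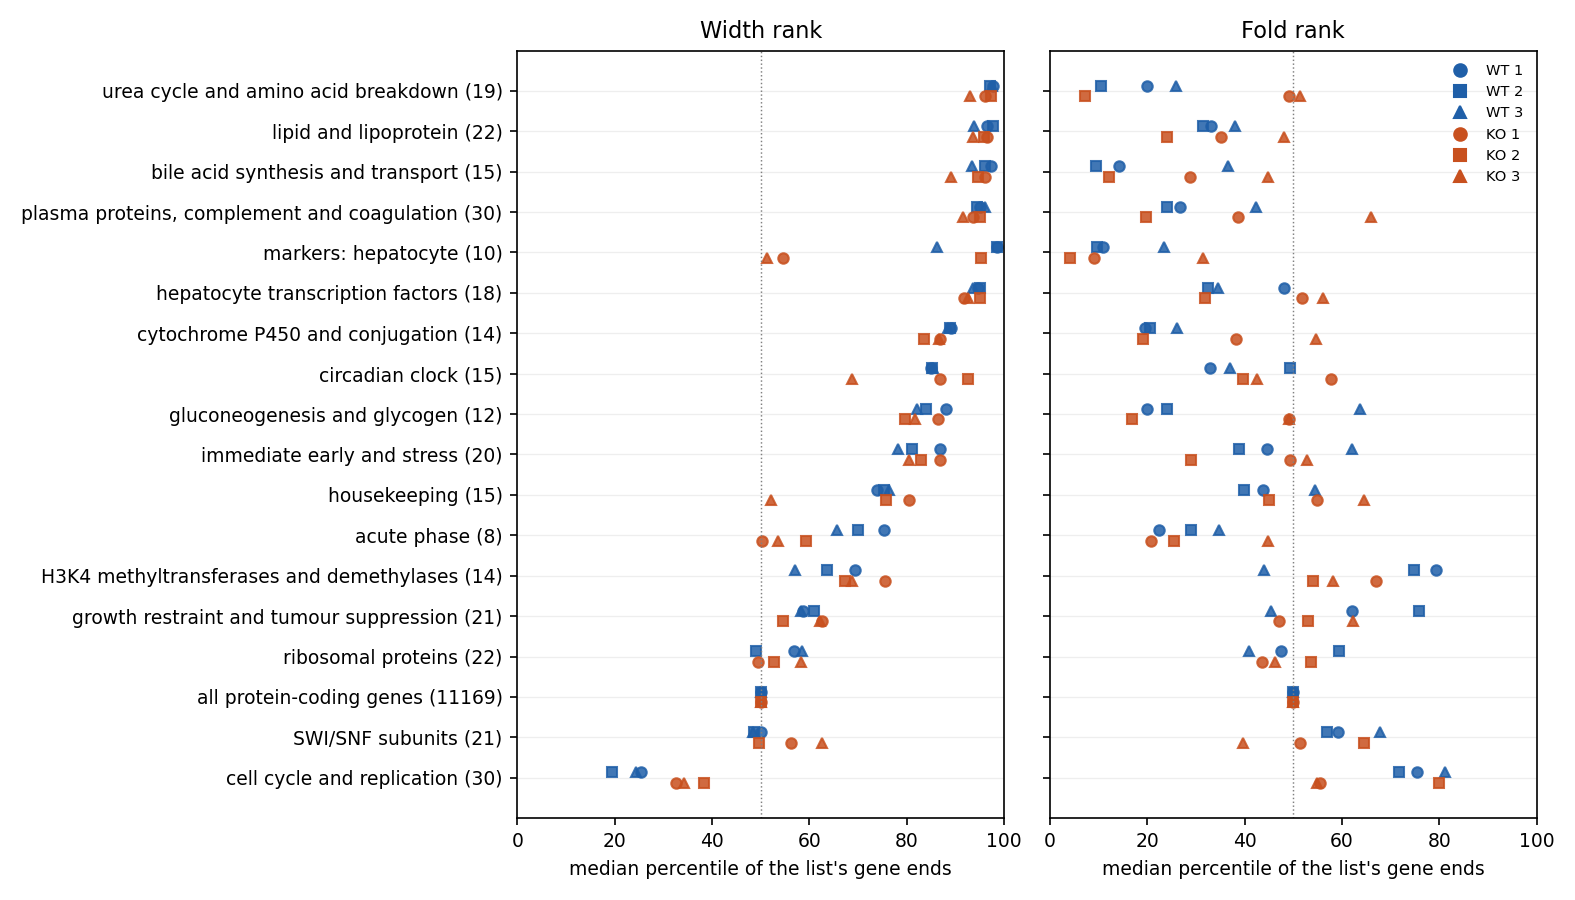
Median width percentile (left) and median fold percentile (right) of the gene ends of each list among the 11169 tested, with the number of tested genes in brackets. Each point is 1 library and the dotted line is the middle of all tested gene ends; the width medians of the plasma protein and urea cycle lists run from 91.5 to 97.7 and those of cell cycle genes from 19.4 to 38.4, while the fold medians vary between libraries.

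Few members of the hepatocyte lists separated the groups by width. Of 30 plasma protein genes 1 had KO above without overlap and 2 had KO below, near the 4.7% and 4.32% of all tested gene ends. Of 14 cytochrome P450 and conjugation genes the counts were 1 and 2, and of 19 urea cycle genes 2 and 0. F2, prothrombin, stood at width percentiles 88.8, 90.3 and 96.0 in WT and 98.2, 97.3 and 97.0 in KO. Fgb, a fibrinogen chain, stood at 98.5, 99.6 and 98.7 in WT and 94.1, 98.0 and 93.6 in KO. These 2 clotting genes thus lay on opposite sides. Scd1, the desaturase that makes monounsaturated fatty acids, stood at 86.3, 88.4 and 87.6 in WT and 97.0, 98.1 and 94.7 in KO. Cyp2c50, a cytochrome P450 with close copies beside it, stood at 79.2, 76.0 and 93.9 in WT and 21.2, 56.0 and 45.3 in KO. Asl, of the urea cycle, stood at 92.6, 93.0 and 95.6 in WT and 98.2, 99.4 and 97.2 in KO. Glul, glutamine synthetase, stood at 62.4, 61.9 and 61.5 in WT and 84.2, 69.2 and 80.8 in KO.

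Hnf4a, the nuclear receptor that maintains hepatocyte identity, had a short mark at its ends in KO, with 1254, 2747 and 1645 bp in WT and 463, 1237 and 695 bp in KO. Its width percentiles were 15.4, 42.4 and 32.6 in WT and 5.54, 3.70 and 6.54 in KO, without overlap. Over the whole gene with 1 kb on each side, peaks covered 28.6%, 39.6% and 22.7% in WT and 18.5%, 32.5% and 16.8% in KO, which overlap. The widest peak there had 9950, 11629 and 5054 bp in WT and 5485, 12782 and 3523 bp in KO, which overlap too. The gene-end value thus leaves out wider peaks within the gene. Cebpd, a relative of Cebpa, was the other transcription factor with KO below, at width percentiles 83.4, 77.2 and 88.5 in WT and 65.9, 68.6 and 60.7 in KO. Of 18 hepatocyte transcription factors, 2 thus had KO below by width and 0 KO above, where 4.32% and 4.7% of all tested gene ends did.

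Among the 10 hepatocyte markers, all marked in all 6 libraries, the median width percentile was 98.5, 98.4 and 86.1 in WT and 54.6, 95.1 and 51.3 in KO. KO replicates 1 and 3 are low and KO replicate 2 lies among the WT libraries, so the groups overlap. Apoa1, the main protein of HDL, shows the pattern, with 13417, 14578 and 3019 bp in WT and 1798, 13576 and 2367 bp in KO. Cyp2e1 had 6520, 15747 and 3660 bp in WT and 353, 6336 and 1149 bp in KO. At Tat, tyrosine aminotransferase, WT replicate 3 is low too, with 16665, 14793 and 734 bp in WT and 1775, 16011 and 1073 bp in KO. A peak width counts everything that the peak caller joined into 1 peak. Over the whole Tat gene with 1 kb on each side, 62.8% lay in peaks in WT replicate 3 and 51.0% and 43.0% in KO replicates 1 and 3, in 4, 2 and 3 separate peaks, against 83.5% in 1 peak in WT replicate 1. Over C4b the covered share was 63.2%, 52.9% and 41.2% in WT and 16.0%, 17.3% and 18.4% in KO, so the groups do not overlap in covered share either. Over Gstm3 it was 6.02%, 20.5% and 12.7% in WT and 36.8%, 66.9% and 50.1% in KO, again without overlap.

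Cell cycle and replication genes had narrower marks than the middle of all tested gene ends in each library. All 30 were marked in all 6 libraries. Their median width percentile was 25.4, 19.4 and 24.5 in WT and 32.7, 38.4 and 34.2 in KO, without overlap (23.1 ± 3.22 and 35.1 ± 2.98, SD, n = 3). The median fold percentile was 75.4, 71.7 and 81.1 in WT and 55.6, 79.98 and 54.9 in KO, with KO replicate 2 among the WT libraries. By width, 6 of 30 genes had KO above without overlap and 1 had KO below, where 4.7% and 4.32% of all tested gene ends did. The 6 were E2f1, Mcm2, Mki67, Cdc25a, Rrm2 and Ccnb1, and the 1 was Cdk2. E2f1, a transcription factor of the G1 to S transition, had 1856, 3082 and 1485 bp in WT and 2468, 3488 and 3640 bp in KO. Mki67, the proliferation antigen Ki-67, had 1573, 1785 and 1376 bp in WT and 1371, 2743 and 1692 bp in KO. Ccnb1, cyclin B1, had 1147, 1383 and 874 bp in WT and 1020, 1702 and 1253 bp in KO. At all 3 genes the widths in bp overlap and the ranks separate. Gene-end peaks as a whole were narrowest in KO replicates 1 and 3. By fold, 3 of 30 genes had KO below and 0 above, where 4.61% and 4.36% of all tested gene ends did. Mcm5 was one of them, at percentiles 99.7, 99.96 and 99.1 in WT and 90.5, 98.5 and 76.2 in KO. Ccne2 and Cdc25c were the others.

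Of 16 acute phase genes, 13 were marked in all WT libraries and 8 in all KO libraries, with 14, 15 and 15 marked in WT and 8, 13 and 12 in KO. Over all protein-coding genes the counts were 12514, 14309 and 12525 in WT and 11544, 14208 and 14365 in KO, so KO replicate 1 is low there as well. Lcn2 was marked in the 3 WT libraries only, with 896, 2347 and 1239 bp. Orm1, which encodes orosomucoid, had 5824, 7775 and 6223 bp in WT and a peak of 932 bp in KO replicate 3 only. Saa1, serum amyloid A, had 358, 3340 and 333 bp in WT and 449 bp in KO replicate 2 only. The Orm and Saa genes have close copies, so peaks there are uncertain. Among the 8 genes marked in all 6 libraries the median width percentile was 75.3, 70.0 and 65.6 in WT and 50.2, 59.3 and 53.6 in KO, without overlap between the groups. Taken gene by gene, however, the median difference of these 8 in normal score of width was only −0.0316. Steap4 was the 1 member of the 8 with KO below in width, at percentiles 77.3, 64.3 and 93.1 in WT and 41.2, 62.1 and 24.8 in KO. Of all tested gene ends, 4.32% had KO below in width without overlap.

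SWI/SNF subunit genes lay near the middle of all tested gene ends in width, and genes for H3K4 methyltransferases and demethylases lay above it. Of 22 SWI/SNF subunit genes, 21 were marked in all 6 libraries, with median width percentiles of 50.0, 48.6 and 48.4 in WT and 56.2, 49.7 and 62.5 in KO. Smarcc2, a core subunit, was the 1 with KO above in width, at 34.8, 39.9 and 23.4 in WT and 62.4, 89.5 and 70.5 in KO. In fold, Smarcd1 and Phf10 had KO above and Smarcc2 had KO below. Of 16 genes for H3K4 methyltransferases and demethylases, 14 were marked in all 6. Their median width percentiles were 69.4, 63.7 and 56.9 in WT and 75.5, 67.3 and 68.8 in KO. The median fold percentiles were 79.3, 74.7 and 43.9 in WT and 66.9, 54.2 and 58.1 in KO. Kdm1a, the demethylase LSD1, which removes this mark, stood at fold percentiles 47.0, 38.5 and 9.46 in WT and 76.9, 53.8 and 59.0 in KO. Kdm5a, another H3K4 demethylase, stood at 39.3, 39.1 and 38.0 in WT and 11.3, 28.5 and 26.4 in KO. These genes each separated without overlap, and none was called. Of all tested gene ends, 4.36% had KO above and 4.61% KO below by fold without overlap, and 4.7% and 4.32% by width.

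Markers of other cells were marked less often than hepatocyte markers in each library. In all 6 libraries the mark was present at 10 of 10 hepatocyte markers, 0 of 12 of Kupffer cells and macrophages, 2 of 12 of endothelial cells, 1 of 12 of stellate cells, 3 of 10 of biliary cells, 2 of 12 of lymphocytes and 0 of 10 of neurons. Endothelial markers with a peak numbered 4, 11 and 4 in WT and 2, 11 and 5 in KO, and Kupffer markers 0, 5 and 0 in WT and 1, 4 and 4 in KO. Stellate markers numbered 3, 7 and 4 in WT and 1, 8 and 2 in KO, and for both types WT and KO replicate 2 are the highest. Of the 12 Kupffer cell and macrophage markers, 6 had no peak in any library, among them Marco, Clec4f, Timd4 and Vsig4. The rest had a peak in at least 1 library, and 1 of them was marked in all 3 KO libraries. Gene-end peaks of WT and KO replicate 2 were also the widest of the 6, and the part of other cells in that was not tested.

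Few gene ends were marked in 1 genotype only. Of 12033 gene ends marked in all WT libraries, 16 had no peak in any KO library (0.133%), and of 11329 marked in all KO libraries, 2 had no peak in any WT library (0.0177%). The 16 were Apol10b, Capn8, Col4a3, Col4a4, Grin1, Lcn2, Mup-ps16, Mup1, Nrbp1, Olfr1160, Olfr1443, Otop3, Rnf133, Taar1, Zfp428 and Znrf4, and the 2 were 4930432M17Rik and Alkal2. Capn8, a calpain protease, had peaks of 1208, 1015 and 1233 bp at fold percentiles 37.8, 80.004 and 58.4 of the WT lists. Col4a3 and Col4a4, chains of basement membrane collagen, share 1 peak between their starts, with 470, 974 and 685 bp. Mup1, a major urinary protein, had 155, 152 and 148 bp, and its family of near-identical copies makes these peaks uncertain.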

How the data were processed

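ChIP-seq with an antibody to H3K4me2 (Millipore, 07-030) gave 1 broad peak list per library, in 3 WT and 3 KO libraries. Per the labels' protocols these libraries were made with a NEBNext kit and sequenced on a NextSeq 500, whereas the C/EBPα and V5 libraries used another kit and instrument. Per the submitters' processing notes the build was mm10, and MACS2 2.0.10.20131216, HOMER, Bowtie2 2.2.3 and Picard are named with no role or order, and thresholds are not given in the sources used here. The deposited lists give for each peak a position, a score, a fold over local background (a ratio), and −log10 p and −log10 q values from the authors' peak caller. The deposited score was not used. Each list is of 1 library, with no pooling of replicates, going by its label. Read numbers are not given, so depth and the precision it would give are unknown. The 10 input samples were not analysed here.

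Width was end minus start. The authors' fold, a ratio to each library's own background, was used only as a rank within its list. The 5 peaks outside chromosomes 1 to 19, X and Y were left out. Gene positions came from RefSeq on GRCm38.p6, which here carries no strand, so both ends of a gene count alike, and strand was taken from the promoter table where a gene was matched. Class values were compared by exact two-sided permutation tests over libraries. Gene ends and shared segments were compared with limma 3.58.1 in R 4.3.3, all 6 libraries in 1 fit, adjusted by Benjamini-Hochberg over all features tested, after a test on simulated data. A gene set's CG counts were used only where at least 80% of its genes had a promoter sequence.

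Named genes are the 10 highest and 10 lowest differences in each gene-end fit among those past the threshold, filled up by smallest p where fewer pass, and 5 each way for segments in gene bodies and outside genes. Arid1a, Cebpa and Alb are named always, and other genes were chosen from the lists after their values were seen. Some genes that the rule names are not reported here. The members and lists were chosen with earlier results of these data known. For gene-end width, the correlations of deviations between libraries with the same number were 0.16, 0.45 and 0.14, all over 0.1. WT replicate 3 and KO replicate 1, with different numbers, reached 0.17. Only number 2 thus stood out, and the numbers are not shown to pair the libraries. The labels give the numbers without saying what they share. For gene-end fold the correlations were 0.07, 0.20 and 0.11. Alternatives were other windows, equal list lengths, the upper 50% of each list, midpoints, autosomes, array weights, percentile ranks, the replicate block and leaving out each library.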

Additional observations from a re-analysis of the deposited data

How the results depend on the processing

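The 7 class comparisons under 6 other settings gave 42 values, of which 33 kept the direction and 9 turned it; with 3 libraries against 3 no exact p can go under 0.1. The share at gene ends turned from 0.0982 points to −0.646 with a 500 bp window, −0.358 with 5 kb, −2.81 with equal list lengths and −4.79 in the upper 50% of each list. In the upper 50%, gene bodies minus outside turned to −1.01 in rank and 0.0251 in log2 width, and gene ends over outside to 0.275 in log2 width, as it did with equal list lengths (0.506). Gene bodies over outside had a log2 width difference of 0.000586 with the 500 bp window. The causes were not tested.

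Leaving out 1 library at a time gave −9.93 to 8.98 points for the share at gene ends and −3.95 to 9.48 for the share outside. The gene-end minus outside rank ranged from −4.93 to −1.59 and the gene-body minus outside rank from −1.09 to 4.99. The log2 width of gene ends over outside ranged from −0.392 to −0.118, that of gene bodies over outside from −0.0383 to 0.00534, and the gene-end width from −761 to −121 bp. The replicate block, an exact sign-flip permutation test within numbers whose smallest p is 0.25, left the 7 mean differences as they were, for example −3.49 for gene-end minus outside rank (exact permutation p = 0.25). In limma the replicate block called 0 gene ends and 0 segments. It gave 599 gene ends by fold and 686 by width at an unadjusted p under 0.05, against 472 and 451 without it.

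By width, array weights called 2 gene ends (Gstm3 and Slc3a1) and percentile ranks 1 (Gstm3). Leaving out 1 library called 0 to 1 gene ends by fold and 0 to 1 by width: Maml3 by fold and Gpt2 by width without KO replicate 2, and Gstm3 by width without WT replicate 2. It called 0 segments by fold and 0 by width. Bins in WT only numbered 761 in gene bodies and 569 outside genes when 1 bp sufficed, and 164 and 65 when the whole bin had to be covered. Bins in KO only numbered 27 in gene bodies at 1 bp, 5 and 0 in gene bodies and outside for whole bins, and 5, 6 and 3 in the 3 classes with equal list lengths. Leaving out 1 library gave 80 to 1484, 400 to 3007 and 247 to 1227 bins in WT only at gene ends, in gene bodies and outside, and 13 to 273, 18 to 804 and 14 to 296 in KO only. Such a count cannot fall when a library is left out. Unknown depth limits every statement about absent peaks.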
